A study of Mus musculus with 8 samples.

Results

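MC38 cells with a Piezo2 knockout were compared with control MC38 cells 60 hours after a single X-ray dose of 30 Gy. MC38 is a mouse colon adenocarcinoma line. The comparison rests on 4 of the study's 8 mRNA sequencing libraries, 2 of the irradiated knockout (KO) line and 2 of the irradiated control line, and takes in each of the 14923 genes, of 29079 listed, that passed a filter on low counts. The control line, labelled WT, was made with a CRISPR control (CRISPR-Ctrl), and the KO line was made with the guide Piezo2-gRNA1. The other 4 libraries hold the same lines at 0 Gy, and they were used to show which differences the lines already had. There is 1 line per genotype and 1 guide, so the loss of Piezo2 and any other difference between the lines cannot be told apart. The sources used here do not say whether a line is a clone or a pool, or whether a group's libraries are separate cultures, so each p-value reflects how far these libraries spread, which may be technical.

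Piezo2 is a mechanically gated cation channel, best known for touch and proprioception in sensory neurons. Irradiated cells can expose nucleic acids in the cytosol, where sensors such as cGAS and the RIG-I-like receptors switch on the gene for interferon beta. Interferon beta binds the receptor chains IFNAR1 and IFNAR2, and the kinases JAK1 and TYK2 then switch on a complex that holds STAT2 and IRF9. It binds an interferon-stimulated response element (ISRE) in the promoters of antiviral genes. Interferon gamma acts through IFNGR1, IFNGR2, JAK1 and JAK2, and its early target genes carry a gamma-activated site (GAS).

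Total counts ran from 10971004 to 19887180 per library, and log2 levels of libraries of 1 group correlated at 0.986 to 0.989 (Pearson, across genes). Piezo2 itself was under the filter: the control libraries had 3 and 9 reads after irradiation and the KO libraries 7 and 12. A guide cuts the DNA and need not lower the transcript, so these reads check neither the labels nor the knockout. Piezo1, the related channel, had 190.03 and 242 CPM (counts scaled to library size) in the irradiated control libraries and 159 and 201 CPM in the irradiated KO libraries. The log2 difference (KO minus control, ± standard error) of -0.26 ± 0.17 was not called (edgeR adjusted p = 0.32; with the libraries paired by number, 2.4e-06). The labels call MC38 an epithelial line. Cdh1 (E-cadherin) had 74 and 76.7 CPM in the irradiated control and 78.4 and 77.8 in the irradiated KO libraries. Of 8 colon epithelial markers 4 were tested and 1, the mucin Muc2, was called higher, with 2 and 3 reads against 23 and 20, a call lost without any 1 of the 4 irradiated libraries. Krt19 was not called, with 11 and 28 reads against 3 and 8 (adjusted p = 0.062; 0.011 with the pairing and 0.034 with no filter on low counts). The other 5 besides Cdh1, the keratins Krt8 and Krt18 among them, had 0 to 20 reads in each of the 8 libraries. The mesenchymal filament gene Vim had 3254 and 3669.7 CPM in control and 2674 and 2963 CPM in KO libraries, which was not called (adjusted p = 0.06; with the pairing, 2.8e-13). Epcam, Cdx2 and Krt20 were not analysed here.

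Promoters of 9 genes of interferon responses that were higher in the irradiated KO cells are printed here to show how the elements described above lie in them. Only stretches with a match could be printed, so a match in each of the 9 was fixed by the choice and is no result. Promoter sequence came from RefSeq (GRCm38.p6), which held a promoter for 10517 of the 14923 genes tested. The 250 bases before the start site were searched on both strands for the ISRE core GAAANNGAAA and for the GAS consensus TTCNNNGAA, where N is any base. The stretches below run 5′ to 3′ on the gene's strand, with ISRE cores, and for Igtp, Tgtp1 and Gbp7 also GAS matches, in capitals, and for Irf1 the GAS match alone. They belong to an antiviral ubiquitin-like protein (Isg15), an RNA-binding antiviral protein (Ifit1), an oligoadenylate synthetase (Oas3), 3 interferon-induced GTPases (Igtp, Tgtp1, Gbp7), the factor Irf1, the chemokine Cxcl10 and the light chain of MHC class I (B2m), and each of these genes was higher in the irradiated KO cells.
Isg15 (chr4:156200850-156200921, - strand): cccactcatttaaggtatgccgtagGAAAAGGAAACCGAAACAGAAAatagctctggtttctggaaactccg
Ifit1 (chr19:34640760-34640838, + strand): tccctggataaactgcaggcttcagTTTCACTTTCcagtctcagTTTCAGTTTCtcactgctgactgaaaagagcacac
Oas3 (chr5:120777700-120777759, - strand): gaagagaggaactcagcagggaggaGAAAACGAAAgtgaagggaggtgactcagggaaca
Igtp (chr11:58199486-58199555, + strand): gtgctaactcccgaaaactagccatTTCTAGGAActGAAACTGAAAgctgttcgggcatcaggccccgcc
Tgtp1 (chr11:48992289-48992359, - strand): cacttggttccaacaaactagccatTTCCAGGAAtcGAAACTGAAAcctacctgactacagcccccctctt
Gbp7 (chr3:142530205-142530317, + strand): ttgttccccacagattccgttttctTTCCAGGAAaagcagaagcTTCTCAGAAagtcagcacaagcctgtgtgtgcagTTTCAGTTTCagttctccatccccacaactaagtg
Irf1 (chr11:53769899-53769957, + strand): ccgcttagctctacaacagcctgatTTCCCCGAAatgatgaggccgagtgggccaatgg
Cxcl10 (chr5:92349068-92349127, - strand): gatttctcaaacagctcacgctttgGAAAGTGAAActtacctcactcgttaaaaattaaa
B2m (chr2:122147523-122147582, + strand): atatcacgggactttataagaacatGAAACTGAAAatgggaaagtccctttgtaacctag

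In Isg15 3 overlapping ISRE cores form 1 run, and in Igtp and Tgtp1 a GAS match lies 2 bases before the ISRE core. An ISRE core was found in 3.46% of all 27025 promoters in the table and in 3.21% of those of genes tested. Among genes higher in the irradiated KO cells the share was 7.28%, among those at least 2-fold higher 15.1%, and among those lower 2.84%. The share was 9 of the 10 interferon-induced GTPases with a promoter and 8 of the 30 listed type I interferon-stimulated genes with one. A GAS match was in 8.13% of all promoters, in 7.13% of those of genes tested, in 8.26% of the higher genes and in 7.3% of the lower genes. It was in 6 of the 10 GTPase promoters and in 4 of the 30 of type I interferon-stimulated genes, and both motifs stood together in 40 of the 10517. A match is a description of the letters and shows no binding.

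After irradiation 1980 genes, 13.3% of those tested, were higher in the KO cells and 1698 genes, 11.4%, were lower at an edgeR adjusted p under 0.05. Of these, 692 (4.64% of genes tested) were at least 2-fold higher and 407 (2.73%) at least 2-fold lower. The median log2 difference over all genes tested was -0.01, and the KO and control libraries did not overlap for any called gene nor for 62.4% of all genes tested, so a lack of overlap between 2 and 2 libraries describes a gene's values and adds nothing to its test. The count of a gene list is to be read against the 13.3% and 11.4% of all genes. Before irradiation the same lines differed in 1555 genes that were higher (10.4%) and 1416 that were lower (9.49%). Same-numbered libraries of different groups deviated together, and with that pairing in the fit 3761 genes were higher and 3755 lower after irradiation. The counts rest on each irradiated library: 1147 genes were higher and 813 lower without irradiated KO library 1, 1219 and 792 without KO library 2, 1208 and 879 without control library 1, and 1100 and 960 without control library 2. Where a count of 5 or fewer is given with its gene names, a gene is marked fragile if its call was lost without at least 1 irradiated library.

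**Figure D1:**
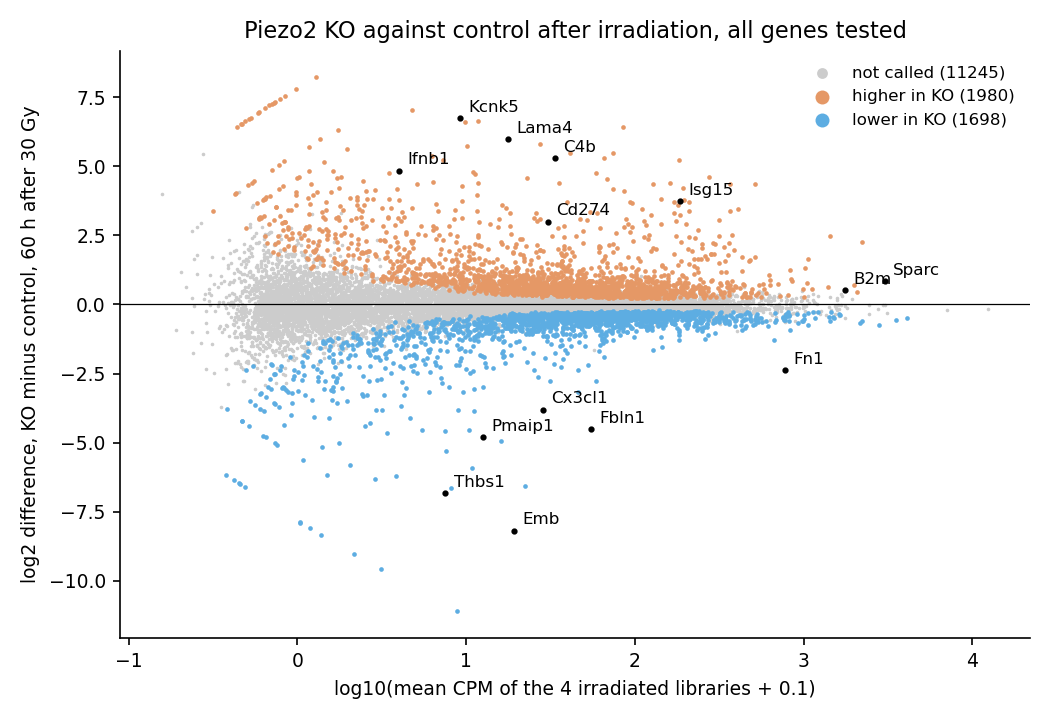
Each point is 1 of the 14923 genes tested, with the log10 mean CPM of the 4 irradiated libraries (plus 0.1) across and the log2 difference between KO and control cells upward. Orange points are the 1980 genes called higher and blue points the 1698 called lower; Isg15, Cd274 and C4b lie well above 0 and Emb, Thbs1 and Fbln1 well below, and for genes with no read in 1 group the fitted difference depends on the small count added by the fit.

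The interferon genes themselves were switched on further in the irradiated KO cells. Ifnb1, the gene of interferon beta, had 0.288 and 0.228 CPM in the irradiated control libraries and 8.47 and 6.73 CPM in the irradiated KO libraries. The gene is at chr4:88522025-88522774 (mm10). That is 8 reads against 247 in all, and a log2 difference of 4.85 ± 0.57 (adjusted p = 0.00086). No library of either line at 0 Gy had more than 1 read of it. Ifna4, 1 of a family of near-identical interferon alpha genes, had no read in either irradiated control library and 1.51 and 0.912 CPM in the KO libraries, at least 12.5-fold higher taking 3 reads over the control group as the most a count of 0 allows. Its adjusted p of 0.02 rose to between 0.062 and 0.11 when any 1 of the 4 irradiated libraries was left out, and to 0.38 with DESeq2.

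Among the ligand, receptor and signalling genes of the interferon pathways, the 4 that fell were Ifnar1, Ifngr1 (fragile), Ifngr2 and Tyk2, of which all but the kinase Tyk2 are receptor chains. Ifnar1, a chain of the type I receptor, had 100.1 and 100.3 CPM in the control and 70.3 and 67.9 CPM in the KO libraries (-0.54 ± 0.07, adjusted p = 0.0011). Ifngr2, a chain of the interferon gamma receptor, fell from 90.2 and 87.3 to 39.2 and 37 CPM (-1.22 ± 0.08, adjusted p = 7.7e-05). Both genes lie on chromosome 16, whose genes had a median of -0.36, and Ifngr2 was also lower before irradiation (57.7 and 54 against 22.7 and 20.9 CPM). Tyk2, the kinase bound to IFNAR1, was -0.55 ± 0.07 (adjusted p = 0.0017), with 68.6 and 71.2 against 48.1 and 47.3 CPM. In all, 6 of 16 tested ligand, receptor and signalling genes rose and 4 fell (7 with the pairing), with a median log2 difference of -0.06.

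Below the receptors, transcription factors of the interferon response were higher. Stat2 and Irf9 belong to the ISRE-binding complex. Stat2 rose from 109.9 and 105 to 464 and 517 CPM (2.19 ± 0.08) and Irf9 from 51.5 and 43.6 to 122 and 115 CPM (1.31 ± 0.11). Irf7, which amplifies interferon alpha transcription, had 31.9 and 23.9 against 346 and 323 CPM (3.59 ± 0.20, adjusted p = 2.8e-05). Irf1, an activator of antigen presentation genes, and Irf2, its relative, rose by 0.66 each, the kinase gene Jak2 by 0.47 ± 0.09 (fragile, adjusted p = 0.061 without irradiated control library 2) and Socs1, the feedback inhibitor of JAK kinases, by 1.10. The groups did not overlap for any of these 7 genes, as for every called gene and for 62.4% of all genes tested.

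All 41 tested type I interferon-stimulated genes were higher in the irradiated KO cells, with log2 differences from 1.23 (Trim25) to 5.30 (Oasl1) and a median of 2.53. The members were chosen with earlier results of these data known, so a full count describes them and is no independent test. The count of 41 was the same in each alternative fit, including those without 1 library. At 0 Gy 27 of the 41 were already called higher in the KO line, against 10.4% of all genes, and 0 lower, with a median of 1.25. Isg15 had 29.5 and 22.2 CPM in the control libraries and 327 and 361 CPM in the KO libraries, a 13.3-fold difference (3.74 ± 0.14, adjusted p = 7.6e-06). The KO values lay far above the control values, and the irradiated control cells in turn lay above the non-irradiated lines (1.40 and 1.20 CPM in control, 3.75 and 3.90 CPM in KO).

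Rsad2 (viperin), which makes a chain-terminating nucleotide, rose from 27.6 and 15.2 to 545 and 508 CPM (4.63 ± 0.27, adjusted p = 3.4e-05), and Ifit1 from 43.7 and 24.7 to 674 and 715 CPM (4.35 ± 0.25). Oasl1, an oligoadenylate synthetase-like protein, had 3.32 and 3.19 against 123 and 134 CPM (5.30 ± 0.15), and the KO libraries lay far above both control libraries. Usp18, the protease that removes ISG15 and dampens IFNAR signalling, rose by 4.11 ± 0.25, and Mx1, an antiviral dynamin-like GTPase, by 3.73 ± 0.27. Outside the list, Ifit1bl1 had 2.88 and 1.14 against 164 and 171 CPM (6.43 ± 0.29), and Slfn8 and Slfn9, Schlafen proteins tied to the arrest of growth and translation, rose by 2.76 ± 0.20 and 1.60 ± 0.07.

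Of 17 interferon-induced GTPases, proteins that attack the membranes around intracellular pathogens, 16 rose, 0 fell, and Gbp8 was not called. The median log2 difference was 3.07. Iigp1 had 12.8 and 6.67 CPM in the control and 381 and 333 CPM in the KO libraries (5.22 ± 0.32, adjusted p = 9.6e-05). Tgtp1 had 5.12 and 3.31 against 107 and 119 CPM (4.76 ± 0.21). Igtp had 29.2 and 20.1 against 298 and 339 CPM (3.70 ± 0.20) and Gbp7 43.5 and 30.05 against 397 and 370.3 CPM (3.39 ± 0.17). The KO libraries stood above the control libraries in each case, with no overlap, as for every gene called higher. Before irradiation 4 of the 17 were called higher (0 without KO library 1, KO library 2 or control library 1 at 0 Gy, 1 without control library 2 at 0 Gy, 7 with DESeq2 or without either irradiated control library, 8 with the pairing or with no filter on low counts), and the median was 0.38. At 0 Gy all 17 together had only 34.1 and 36.3 CPM in the control and 50.9 and 52.7 CPM in the KO libraries. After irradiation the sums were 455 and 331 CPM and 3420 and 3350 CPM. Few calls and a small median at 0 Gy thus rest on few reads and do not show that the lines were alike. Reads of near-identical copies (Tgtp1 and Tgtp2, the guanylate-binding proteins, the MHC class I genes) may have been split between them, so their single values are uncertain.

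Of the sensors of nucleic acids and their partners, 16 of 21 were higher, 1 was lower and the median log2 difference was 1.56. At 0 Gy 8 were already higher and 1 lower (15 and 3 with the pairing), with a median of 0.37. Tlr3, the endosomal receptor for double-stranded RNA, had 37.7 and 29.5 against 259.5 and 244 CPM (2.91 ± 0.14, adjusted p = 1.6e-05). Cgas, the sensor of cytosolic DNA, was low and rose from 6.20 and 7.41 to 17.3 and 15.1 CPM (1.25 ± 0.21, adjusted p = 0.0049). The PYHIN genes Ifi205 and Ifi206, of a family that binds DNA, rose by 3.72 ± 0.18 and 5.49 ± 0.23, and Trim30a, a TRIM E3 ligase, by 3.23 ± 0.19. The 1 gene that was lower after irradiation, the RIG-I adaptor Mavs, was chosen for naming after its values were seen. Its call (log2 -0.28, adjusted p = 0.036) was lost without any 1 of the 4 irradiated libraries (adjusted p from 0.076 to 0.20) and with DESeq2 (0.083).

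**Figure D2:**
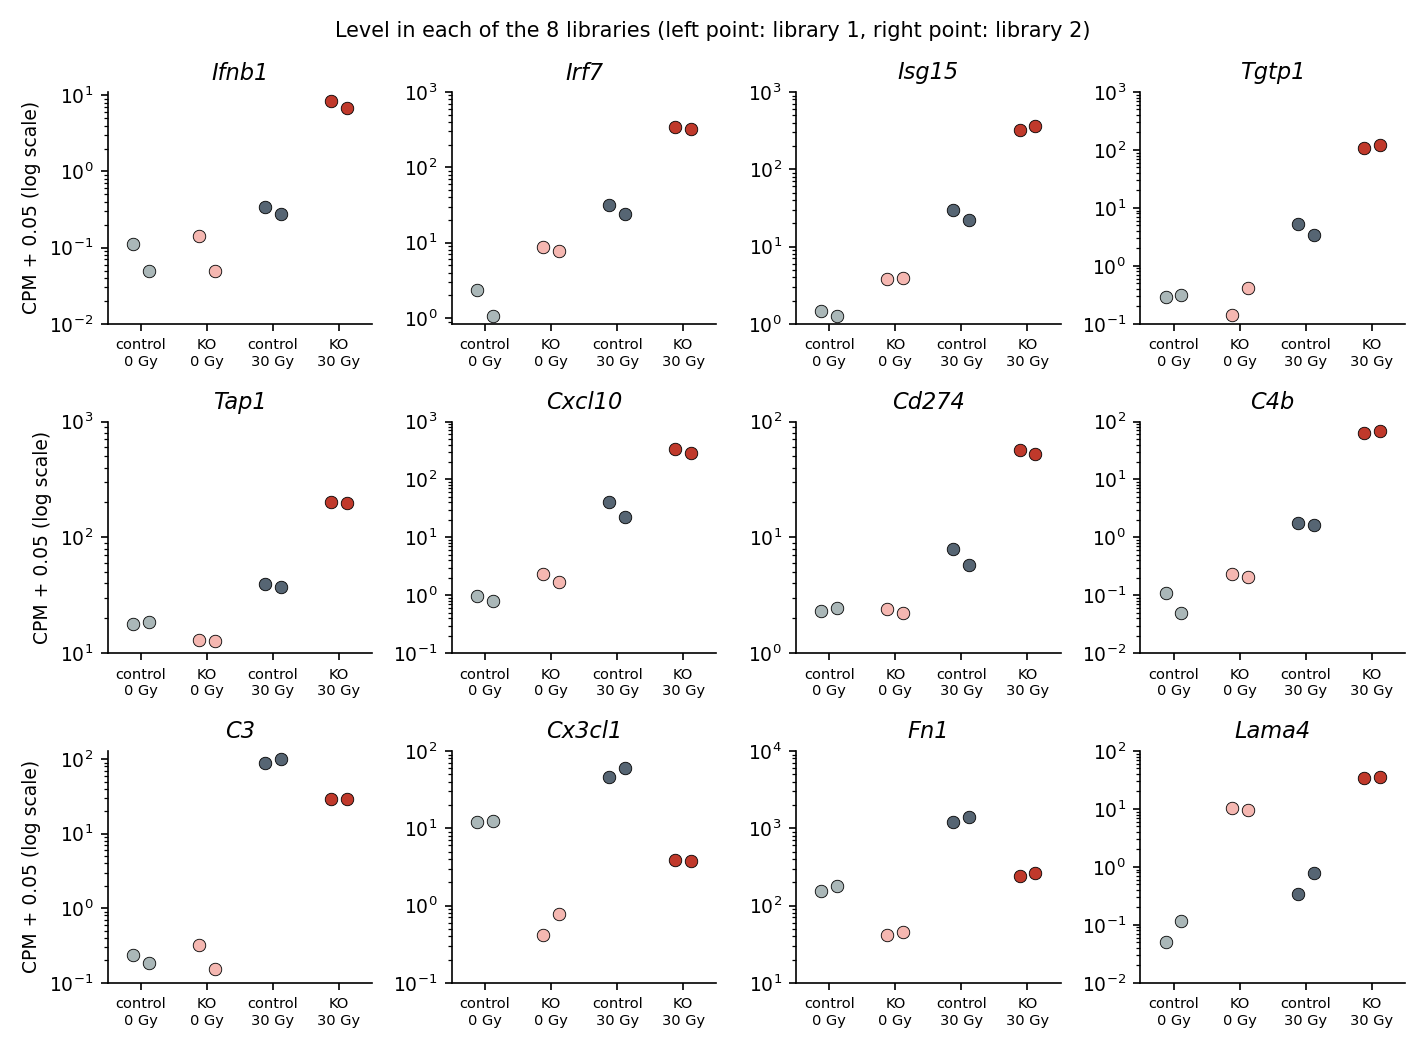
Each panel gives 1 gene's CPM (plus 0.05, log scale) in the 8 libraries, with control and KO cells at 0 Gy and 60 hours after 30 Gy; the left point of a pair is library 1 and the right point library 2. Isg15 reaches 327 and 361 CPM in the irradiated KO libraries against 29.5 and 22.2 in the irradiated control libraries, while Cx3cl1, Fn1 and C3 are lower in the irradiated KO cells than in the irradiated control cells.

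The MHC class I pathway shows peptides to CD8 T cells. 14 of its 21 tested genes rose (9 without irradiated KO library 1), 0 fell, and the median log2 difference was 0.63, against -0.14 before irradiation. At 0 Gy 0 were higher and 5 lower (3 and 10 with the pairing, 3 lower without KO library 1 or either control library at 0 Gy). The genes that make and load peptides were among them. Tap1, a subunit of the peptide transporter, had 39.5 and 37.1 against 200.4 and 199 CPM (2.38 ± 0.07, adjusted p = 6.5e-06). Psmb9, an immunoproteasome subunit, had 13 and 8.55 against 40.5 and 40.9 CPM (1.92 ± 0.20). Its partner Psmb10 had 40.2 and 36 against 89.7 and 85.6 CPM (1.20 ± 0.09). Nlrc5, the transactivator of class I genes, had 49.1 and 50.8 against 209.6 and 206 CPM (2.06 ± 0.10). The KO libraries lay above the control libraries without overlap for all 4, as for every gene called higher. The non-classical H2-T23 rose by 1.58 ± 0.12, H2-K1 by 0.55 ± 0.10 and B2m by 0.52 ± 0.10, while H2-D1, with 1523 and 1379.5 against 1803 and 1641 CPM, was not called (0.25 ± 0.09, adjusted p = 0.082; with the pairing, 4.3e-08). H2-K1 and B2m lost their calls without irradiated KO library 1 (adjusted p = 0.055 and 0.068) or irradiated control library 2 (0.069 and 0.081).

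Chemokines and cytokines split in both directions, with 8 of 21 higher and 7 lower. The count of higher genes was 3 without irradiated KO library 1, 4 without irradiated KO library 2, irradiated control library 1 or irradiated control library 2. The count of lower genes was 3 without irradiated KO library 2, 4 without irradiated KO library 1 or irradiated control library 1. The ligands of CXCR3, a receptor on activated T cells, were in the higher set. Cxcl10 had 40.9 and 22.4 CPM in the control and 329 and 290.2 CPM in the KO libraries (3.30 ± 0.25, adjusted p = 0.00012). Cxcl9 had 0.36 and 0.285 against 4.33 and 3.71 CPM (3.62 ± 0.46). Il15, a survival factor for T and NK cells, rose from 18.2 and 13.5 to 60.2 and 54.6 CPM (1.86 ± 0.20). In the lower set, Cx3cl1 (fractalkine), the ligand of CX3CR1, had 46.6 and 59.4 against 3.87 and 3.71 CPM (-3.81 ± 0.19, adjusted p = 1.9e-05), and it was lower before irradiation as well (12.1 and 12.4 against 0.366 and 0.719 CPM).

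Surface ligands read by lymphocytes also split, with 7 of 19 higher (3 without irradiated KO library 1, irradiated KO library 2 or irradiated control library 2, 4 without irradiated control library 1, 3 with DESeq2) and 4 lower (Tnfsf9, Ulbp1, Icam1 and Vcam1). Cd274, the gene of the T cell inhibitor PD-L1, rose from 7.93 and 5.70 to 56.3 and 52.1 CPM, a 7.99-fold difference at chr19:29367455-29388095 (3.0 ± 0.17, adjusted p = 2.7e-05). The adhesion molecules Icam1 and Vcam1, which bind integrins of leukocytes, fell by 1.73 and 1.27 on the log2 scale. Vcam1 had 106 and 103 against 46.5 and 39.7 CPM. Tnfsf9, the co-stimulatory 4-1BB ligand, had 19.2 and 16.1 against 8.79 and 8.78 CPM (-1.01 ± 0.17). The KO libraries of these 3 genes lay below both control libraries, as for every gene called lower.

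NF-kB is the other main route from innate sensors to transcription. Of its subunits and feedback targets, 9 of 17 fell and 2 rose (Nfkbib (fragile) and Ikbkb (fragile)), with a median log2 difference of -0.31 (3 fell without irradiated KO library 1 and 5 without KO library 2). Tnfaip2, a gene induced by tumour necrosis factor, had 189 and 205 against 85.5 and 89.6 CPM (-1.17 ± 0.07) and about the same gap at 0 Gy (211 and 207 against 83.6 and 84.5 CPM). Complement genes went both ways, with 3 of 11 higher (C4b and Clu among them; 5 with the pairing) and 3 lower (C1ra, C1s1 and C3). C4b, of the classical pathway, had 1.73 and 1.60 against 63.5 and 67.8 CPM, a 39.4-fold difference (5.30 ± 0.18, adjusted p = 6.5e-06). C3, the shared component of all pathways, had 87.7 and 99 against 28.9 and 29.2 CPM (-1.68 ± 0.12, adjusted p = 7.5e-05). The protease C1s1 fell by 2.36. C3 was near 0 in both lines without irradiation (at most 0.275 CPM).

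Markers of immune cells were looked at beside these results. Of 9 T and NK cell markers 1 was tested and 0 were called. Their summed level was 1.15 to 1.254 CPM in the irradiated control and 1.247 to 1.37 CPM in the irradiated KO libraries, and Cd3e, Cd8a and Prf1 had 0 to 2 reads in each library. Of 14 macrophage markers 4 were tested, 1 was called higher and 0 lower. Their summed level was 38 to 39.9 CPM in the control and 56.5 to 65.6 CPM in the KO libraries, nearly all of it the lysosomal gene Cd68, the 1 that rose (35 and 37.3 against 62 and 53.1 CPM). Ptprc (CD45), common to leukocytes, had 20 and 20 reads against 6 and 7 and was not called (adjusted p = 0.13; 0.023 with the pairing, 0.048 with the irradiated libraries alone). Ctss (cathepsin S) had 2 and 2 against 10 and 17 reads and was not called (adjusted p = 0.059; 0.0095 with the pairing, 0.038 with the irradiated libraries alone). The other 11 had 0 to 14 reads in each library, with Adgre1, C1qa and Itgam at 0 to 2. Of 9 B and dendritic cell markers 3 were tested, 1 was called higher and 1 lower. Their summed level was 58.2 to 58.7 CPM in the control and 10.5 to 12.1 CPM in the KO libraries, most of it Spib, which fell (54.4 and 54.9 against 8.01 and 8.04 CPM). The gene that rose was Cd79a (fragile), with 1 and 3 against 31 and 15 reads. Xcr1 had 50 and 50 against 28 and 26 reads and was not called (adjusted p = 0.27; 0.031 with the pairing), and the other 6 had 0 to 4 reads in each library.

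The KO difference was tested against that at 0 Gy in 1 fit (the interaction, which shares the irradiated libraries with the comparison above). The KO effect was more positive after irradiation in 205 genes (1.37%) and more negative in 85 (0.57%); with the pairing these were 1216 and 1276, and with any 1 library left out 99 to 124 and 18 to 31. Among the 41 type I interferon-stimulated genes 21 had a more positive effect after irradiation (16 to 20 with 1 library left out). Among the 21 class I genes there were 10 (19 with the pairing, 6 to 8 with 1 library left out), among the 21 sensors 10, and among the 17 GTPases 5 (10 with the pairing, 9 with DESeq2 or with no filter on low counts, 2 to 7 with 1 library left out). None of the 4 lists had a gene with a more negative effect, except for 1 sensor with the pairing. An interaction named from here on is marked fragile if its call was lost without at least 1 of the 8 libraries; 24 of the 42 named genes with an interaction call lost it in this way.

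Cd274 was among the genes with a more positive effect. At 0 Gy it had 2.25 and 2.40 CPM in control and 2.38 and 2.16 CPM in KO libraries (interaction 3.04 ± 0.27, adjusted p = 0.0021). In other genes the direction turned. Tap1 was lower in the KO line at 0 Gy (17.9 and 18.4 against 12.9 and 12.8 CPM, log2 -0.50 ± 0.08) and higher after irradiation (interaction 2.88 ± 0.11, adjusted p = 0.00013). The same turn was called for Psmb9 (-1.28 ± 0.29 at 0 Gy), Irf1 (-0.50 ± 0.10), Socs1 (-1.51 ± 0.17) and Slfn9 (-0.30 ± 0.07). In Isg15 the KO line was already higher without irradiation (1.55 ± 0.25, adjusted p = 0.0048), and the difference grew by 2.18 ± 0.31 (fragile, adjusted p = 0.014). For Ifit1 and Irf7 the KO line was also higher at 0 Gy (3.59 ± 0.49 and 2.27 ± 0.31), and the interaction was not called (0.76 ± 0.70 and 1.32 ± 0.40). Calls in opposite directions before and after were made for 32 of the 1976 genes called in both.

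The KO differences at 0 Gy and after irradiation rest on separate libraries. Of the 1980 genes higher after irradiation 51.5% were also called higher before it, and 65.6% of the 1555 higher before were higher after. For lower genes the shares were 54.4% of 1698 and 65.3% of 1416. Over the 10519 genes whose mean reached 5 CPM the log2 differences correlated at 0.769 (Pearson, across genes of the same lines, which are not independent replicates). A more positive interaction was called for 180 of the 1980 genes higher after irradiation and a more negative one for 27 of the 1698 lower genes, in tests that share the irradiated libraries.

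**Figure D3:**
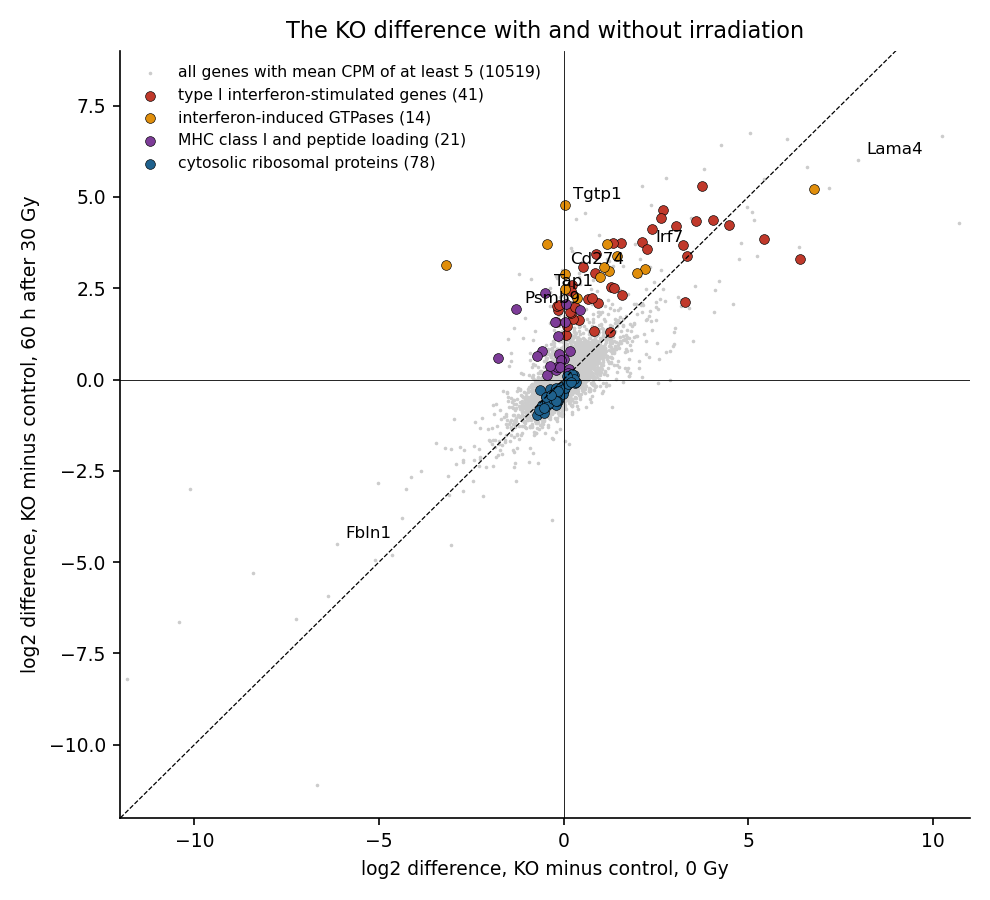
Each grey point is 1 of the 10519 genes whose mean reached 5 CPM, with the log2 KO difference at 0 Gy across and that 60 hours after 30 Gy upward; the dashed line marks equal differences. Coloured points are type I interferon-stimulated genes (41), interferon-induced GTPases (14), MHC class I genes (21) and cytosolic ribosomal protein genes (78); Tgtp1, Cd274 and Tap1 lie near 0 across and well above the line, and Lama4 and Fbln1 are far from 0 on both axes.

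Among the largest differences were genes that were on in 1 line and nearly off in the other. Lhfpl4, a synaptic membrane protein gene, had 19.8 and 15.2 CPM in the irradiated control libraries and no read in the KO libraries, at least 189-fold lower in KO. Ndp, the gene of the WNT receptor ligand norrin, had 5.98 and 6.21 CPM and no KO read at either dose, at least 66.8-fold lower after irradiation. Emb (embigin, a partner of lactate transporters) had 37.9 and 37.9 against 0.131 and 0.114 CPM. The neural adhesion molecule Ncam1 had 41.8 and 46.4 against 0.591 and 0.342 CPM. The transcriptional regulators Zfp503 and Zic5 had 5.19 and 5.87 CPM and 8.72 and 6.10 CPM in the control and at most 0.171 CPM in KO libraries. Nptx1, Dact2 and Itpkb followed the same pattern, with log2 differences of -5.30, -5.92 and -6.63.

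In the other direction Kcnk5, a potassium channel gene, had 0.288 and 0.057 CPM in the control and 18.2 and 17.7 CPM in the KO libraries (6.74 ± 0.43, adjusted p = 5.1e-05), with 0.243 and 0.533 against 12.4 and 13.2 CPM at 0 Gy. Bche (butyrylcholinesterase) had 0.144 and 0.285 against 24.3 and 21.9 CPM. Sprr1a, a cornified envelope protein gene, had 0.216 and 0.171 against 18.4 and 20.1 CPM. The protease gene Klk6 had 0.216 and 0.342 against 12.2 and 12.1 CPM. The KO values of these 4 genes stood above the control values at both doses. Heph, a copper oxidase of iron export, had 2 control reads in all against 9.65 and 9.01 CPM in the KO libraries, a ratio of 146 with a 95% exact interval from 40.1 to 1212 that covers counting error only. Apod, a lipocalin induced in stressed cells, was low at 0 Gy (0.243 and 0.0667 against 1.74 and 0.77 CPM) and had 4.18 and 2.28 against 159 and 129 CPM after irradiation, an interaction of 2.72 ± 1.27 that was not called (adjusted p = 0.45).

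Some differences were smaller after irradiation than at 0 Gy. Rtl9, a gene derived from a retrotransposon, had 0.852 and 0.933 CPM in the control and 21.9 and 21.1 CPM in the KO libraries at 0 Gy, and 6.63 and 8.32 against 29.9 and 33 CPM after irradiation (interaction -2.51 ± 0.23, adjusted p = 0.0023). Lbp, a lipopolysaccharide-binding protein, had 0.122 and 0.267 against 2.47 and 2.10 CPM and then 16 and 13.7 against 33.2 and 28.9 CPM (interaction -2.45 ± 0.39, fragile, adjusted p = 0.023). Batf2, a factor of the AP-1 family, went the other way, with 1.16 and 1.20 against 0.183 and 0.719 CPM at 0 Gy and 3.96 and 2.57 against 22.6 and 25.9 CPM after irradiation (interaction 4.11 ± 0.58, fragile, adjusted p = 0.014).

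Extracellular matrix is built from collagens and glycoproteins and is trimmed and crosslinked by enzymes. Of 34 collagen genes 11 rose (4 without irradiated KO library 2, 6 without irradiated control library 1) and 3 fell (Col2a1 (fragile), Col4a5 (fragile) and Col8a1; 7 with the pairing). Col3a1, a fibrillar chain, had 566 and 644 against 1023 and 1168 CPM (0.86 ± 0.12). Col8a1, a short chain of basement membranes, had 107 and 116 against 48.2 and 54.3 CPM (-1.12 ± 0.09). Sparc, the gene of a collagen-binding protein, rose from 2115 and 2227 to 3809.7 and 3937 CPM (0.84 ± 0.07). Of 33 glycoproteins and proteoglycans 10 rose and 10 fell. Laminin chains of basement membranes were among those that rose: Lama4 (0.288 and 0.741 against 33.7 and 35.7 CPM, 6.0 ± 0.33), Lama5 (1.19 ± 0.19) and Lamb3 (1.49 ± 0.12). Tnc, a matrix protein of remodelling tissue, rose by 2.28 ± 0.32. Fibroblast markers were looked at beside these genes. Of 12, 9 were tested, 5 rose (Col1a1 (fragile), Col1a2, Col3a1, Dcn (fragile) and Pdgfrb) and 1 fell (Dpt (fragile)). Their summed level was 1632 to 1815 CPM in the irradiated control and 2605 to 2916 CPM in the irradiated KO libraries. Lum had 0 to 1 reads and Thy1 0 to 5 reads in each of the 8 libraries. Of 11 endothelial markers 5 were tested, 2 rose (Cdh5 (fragile) and Tek) and 1 fell (Vwf), with a summed 16.1 to 23 CPM in the control and 14.7 to 19.2 CPM in the KO libraries. The part of other cell types in the matrix genes was not tested.

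Fn1 (fibronectin), a scaffold of early matrix, had 1191 and 1419 CPM in the control and 240.2 and 264 CPM in the KO libraries, a 5.17-fold difference (-2.37 ± 0.12, adjusted p = 2.1e-05). Fbln1, a fibronectin-binding protein gene, had 98 and 113 against 4.13 and 5.13 CPM (-4.50 ± 0.16). Thbs1 (thrombospondin 1), which can activate latent TGF-beta, had 14.1 and 15.4 against 0.131 and 0.114 CPM (-6.82 ± 0.40). Thbs2 fell by 3.27 on the log2 scale. Each KO value of these 4 genes lay below each control value, as for every gene called lower, and the 4 were called lower at 0 Gy too. Of 25 proteases, crosslinkers and inhibitors 8 rose (3 without irradiated KO library 2 or irradiated control library 1, 4 without irradiated KO library 1, 5 without irradiated control library 2) and 5 fell (Mmp9, Mmp11, Adamts9 and Loxl2 among them). Loxl2, a collagen crosslinker, had 31 and 30.7 against 0.787 and 1.20 CPM. Mmp9, a gelatinase, had 9.95 and 11.4 against 0.722 and 1.60 CPM. Plau (urokinase) had 2.88 and 3.99 against 9.84 and 8.55 CPM, the last with a smaller KO difference than at 0 Gy (interaction -1.61 ± 0.31, fragile, adjusted p = 0.047).

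Piezo channels pass calcium when the membrane is stretched. Of 29 mechanosensitive channel and calcium genes 9 rose (14 with the pairing, 4 without irradiated control library 1, 5 without irradiated KO library 2 or irradiated control library 2) and 3 fell (Trpv2 (fragile), Stim2 (fragile) and Atp2b1; 8 with the pairing). Itpr2, a calcium release channel, had 22.7 and 27.1 against 52.9 and 64.3 CPM (1.23 ± 0.14, adjusted p = 0.00086). Atp2b4, a calcium pump of the plasma membrane, had 6.92 and 7.81 against 22 and 23.8 CPM (1.63 ± 0.15). The potassium channel gene Kcnk6 had 0.144 and 0 against 3.81 and 3.48 CPM. Of 27 genes of the YAP and TAZ pathway 8 fell (15 with the pairing) and 1, the receptor gene Axl, rose (0.75 ± 0.09; 4 rose with the pairing). Ccn2, a matricellular growth factor and widely used YAP target, had 1.44 and 2.91 CPM in the control libraries and no read in the KO libraries, at least 24.7-fold lower. Of 31 integrin, focal adhesion and actin genes 3 rose (Itga5 (fragile), Itgb4 and Parva; 5 with the pairing) and 9 fell (18 with the pairing, 4 without irradiated KO library 1 or irradiated control library 2, 5 without irradiated KO library 2). Itgb4, the integrin chain of hemidesmosomes, had 116 and 132 against 406 and 479.7 CPM (1.84 ± 0.12). Actn1, an actin crosslinker, had 588 and 669 against 347 and 409 CPM (-0.73 ± 0.12).

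TGF-beta and BMP genes fell in 10 of 26 cases (6 without irradiated KO library 1) and rose in 4 (Tgfbr2, Tgfbi, Bmp1 (fragile) and Acvrl1). Tgfbi, named for its induction by TGF-beta, went from 552 and 614 to 1426 and 1499 CPM (1.33 ± 0.09). Acvrl1 (ALK1), a receptor for BMP9, had no control read after irradiation and 1.77 and 1.77 CPM in the KO libraries, at least 18.5-fold higher. Of 24 ERK output, ETS factor and immediate early genes 14 fell, against 11.4% of all genes, and fewer did without any 1 of the 4 irradiated libraries. In the same list 1 rose (Egr1 (fragile), 4 with the pairing) and 9 were not called. The median log2 difference was -0.53, against -0.37 at 0 Gy with 10 lower (19 with the pairing, 6 without control library 1 at 0 Gy). Fosl1, an AP-1 subunit, had 39 and 47.3 against 16 and 18.1 CPM (-1.34 ± 0.15). The feedback inhibitor Spry2 had 23.4 and 20.6 against 13.8 and 10.4 CPM (-0.87 ± 0.16). Myc had 88.3 and 103 against 46.5 and 58.8 CPM (-0.86 ± 0.13). Egr2, an immediate early factor, fell by 3.03.

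Of 21 growth factor and receptor genes 8 fell and 4 rose (Erbb3, Pdgfrb, Igf2r (fragile) and Vegfd). Met, the receptor of hepatocyte growth factor, had 101 and 109 against 50.7 and 55.9 CPM (-0.97 ± 0.09, adjusted p = 0.00034). Fgf7, a growth factor for epithelial cells, had 3.10 and 3.14 against 0.591 and 0.171 CPM (-3.04 ± 0.58). Pdgfrb, a receptor of platelet-derived growth factor, rose from 105 and 120.1 to 185 and 220.2 CPM (0.85 ± 0.12). Among 20 Hedgehog, Notch and Wnt genes 5 fell (Ptch1 (fragile), Jag1, Hes1 (fragile), Hey1 (fragile) and Wnt10a; 9 with the pairing) and 1 rose (3 with the pairing). The Notch ligand Jag1 had 49.8 and 43.6 CPM in the control and 18.1 and 16.2 CPM in the KO libraries (-1.44 ± 0.11), and less of a gap at 0 Gy (16.2 and 16.9 against 14.5 and 14.3 CPM; interaction -1.24 ± 0.16, fragile, adjusted p = 0.0079). Wnt5a, a non-canonical Wnt, was the 1 that rose (19.9 and 18.5 against 37.1 and 32.9 CPM, 0.87 ± 0.12), and the canonical Wnt10a fell by 2.99.

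Of 35 genes of DNA replication 18 fell, against 11.4% of all genes, 2 rose (Mcm6 and Rrm1 (fragile); 4 with the pairing) and 15 were not called, with a median log2 difference of -0.40. At 0 Gy the median was -0.30 and 17 were lower (27 with the pairing, 7 without KO library 1 or control library 1 at 0 Gy, 10 without control library 2 at 0 Gy, 11 without KO library 2 at 0 Gy, irradiated KO library 2 or irradiated control library 2). Mcm4, a subunit of the replicative helicase, had 363 and 367 CPM in the control and 153 and 156 CPM in the KO libraries (-1.24 ± 0.07, adjusted p = 2.9e-05). The gap was wider than at 0 Gy (interaction -0.61 ± 0.10, fragile, adjusted p = 0.025), and Mcm4 lies on chromosome 16. Uhrf1, which carries DNA methylation through replication, had 382 and 413 against 196 and 197 CPM (-1.02 ± 0.09). Tk1 (thymidine kinase) had 76.1 and 81.5 against 41.6 and 42.3 CPM (-0.91 ± 0.07). Mcm6, of the same helicase as Mcm4, rose from 478 and 469.7 to 699 and 688 CPM (0.55 ± 0.07, interaction 0.64 ± 0.09, fragile, adjusted p = 0.016). The proliferation marker Mki67, with 869.7 and 1123 against 1142 and 1434 CPM, was not called (0.37 ± 0.18, adjusted p = 0.18; 3.6e-12 with the pairing and 0.016 with no filter on low counts).

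Mitotic genes fell in 10 of 32 cases (3 without irradiated KO library 2, 4 without irradiated KO library 1 or irradiated control library 2, 5 without irradiated control library 1) and rose in 5 (Cdc25c (fragile), Mad2l1 (fragile), Kif2c (fragile), Pttg1 and Prc1 (fragile); 10 with the pairing). Kif23, a kinesin of cell division, had 172 and 187 against 103 and 111 CPM (-0.74 ± 0.10). Pttg1 (securin) had 47.9 and 39.1 against 94.2 and 77.6 CPM (0.98 ± 0.15). Of 32 genes of DNA break repair and signalling 11 fell (17 with the pairing, 4 without irradiated KO library 1, 5 without irradiated control library 2, 6 without irradiated KO library 2 or irradiated control library 1) and 4 rose (Atm, Rad54l, Blm (fragile) and Fanci). Prkdc, the catalytic subunit of DNA-dependent protein kinase, had 117 and 127 against 65.8 and 69.9 CPM (-0.85 ± 0.10, adjusted p = 0.0009); it too lies on chromosome 16. Of 32 p53 targets 7 rose and 4 fell (Pmaip1, Btg2 (fragile), Plk2 and Psrc1 (fragile); 9 with the pairing). The count of rises was 15 with the pairing, 4 without irradiated KO library 2, irradiated control library 1 or irradiated control library 2. The cell cycle inhibitor Cdkn1a (p21) had 101 and 101 against 233 and 226 CPM (1.18 ± 0.08, adjusted p = 5.1e-05) and was also higher at 0 Gy (96.2 and 87.7 against 174 and 164 CPM). Eda2r, a receptor of the tumour necrosis factor family, rose by 1.63 ± 0.23. Of 58 histone genes 17 were tested. Among these 2 rose (Hist1h2bc and Hist1h1c, 4 with the pairing) and 1 fell (Hist2h2be (fragile), 3 with the pairing). Their median was 0.78, against 0.77 at 0 Gy. With 0.5 CPM added to each value, the median log2 ratio after irradiation was 0.38 for libraries 1 and 0.25 for libraries 2. At 0 Gy it was -0.24 for libraries 1 and 0.44 for libraries 2, so the 0 Gy median of 0.77 shows no shared direction. At 0 Gy 0 of the 17 were called higher and 2 lower (4 and 3 with the pairing). The linker histone gene Hist1h1c had 18.8 and 17.7 against 42.3 and 36.4 CPM after irradiation and 75.8 and 61.9 against 73.8 and 65.4 CPM at 0 Gy (interaction 1.09 ± 0.18, fragile, adjusted p = 0.029).

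Death genes were called in 6 of 22 cases, 3 higher (Casp4, Gsdmd and Mlkl) and 3 lower (Bcl2, Pmaip1 and Bcl2l11 (fragile)), against 7 and 6 with the pairing. Both shares are near those of all genes tested, 13.3% higher and 11.4% lower. Pmaip1 (NOXA), which opens the mitochondrial route to apoptosis, had 27 and 21.1 CPM in the control and 0.591 and 1.08 CPM in the KO libraries (-4.81 ± 0.32, adjusted p = 6.5e-05), and 7.06 and 4.93 against 0.275 and 0.205 CPM at 0 Gy. Bcl2, which blocks that route, had 24.4 and 22.6 against 9.52 and 9.01 CPM after irradiation (-1.34 ± 0.11) and 16.9 and 17 against 16 and 15.8 CPM before (interaction -1.25 ± 0.15, fragile, adjusted p = 0.0068). Mlkl, the pore-forming effector of necroptosis, had 134 and 121 against 247 and 232 CPM (0.91 ± 0.08). The inflammatory caspase Casp4 had 33.1 and 32.4 against 65.2 and 60.1 CPM (0.93 ± 0.13). Gsdmd, the pore protein of pyroptosis, had 48.7 and 51.3 against 92.7 and 90.6 CPM (0.87 ± 0.07). For these 3 the KO effect was more positive than at 0 Gy (interaction 1.18 ± 0.11, 1.42 ± 0.20 (fragile) and 0.75 ± 0.10 (fragile)).

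Ribosomal proteins build the translation machinery. Of 81 cytosolic ribosomal protein genes 29 fell and 0 rose (2 rose with the pairing), with a median log2 difference of -0.47, against -0.24 at 0 Gy. The count of falls was 66 with the pairing, 16 without irradiated KO library 2, 17 without irradiated control library 1, 19 without irradiated KO library 1, 57 with no filter on low counts. They took 4.51% and 5.07% of the counts in the irradiated control libraries and 3.39% and 3.67% in the irradiated KO libraries. Rpl12 had 1177 and 998 against 617 and 543 CPM (-0.91 ± 0.12). Of 13 mitochondrially encoded genes 3 fell (mt-Nd1, mt-Nd2 and mt-Cytb), 9 with the pairing and 8 with no filter on low counts. Their median log2 difference was -0.55, against -0.13 at 0 Gy. It depended on the library pair: with 0.5 CPM added to each value, the median log2 ratio was -0.23 for libraries 1 and -0.63 for libraries 2. The gene mt-Cytb, for a subunit of respiratory complex III, had 3587 and 3409 against 2196 and 2019.6 CPM (-0.73 ± 0.07). Nuclear genes of oxidative phosphorylation had a median of -0.01, with 5 of 75 higher and 5 lower (Ndufa2 (fragile), Atp5a1 (fragile), Uqcrc2, Cox6b1 and Uqcrh (fragile) against Atp5d, Atp5e (fragile), Atp5j (fragile), Ndufa4 and Atp5s (fragile); 18 and 17 with the pairing). How ribosomal and mitochondrial shares relate to RNA quality or library preparation was not tested.

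Cholesterol genes rose in 7 of 27 cases and fell in 0 (1 fell with the pairing), with a median of 0.25. The count of rises was 18 with the pairing, 1 without irradiated KO library 1 or irradiated control library 2, 4 without irradiated KO library 2 or irradiated control library 1. At 0 Gy 17 were higher with a median of 0.54. Insig1, the sterol-regulated brake on SREBP, had 272 and 222 against 458 and 343 CPM (0.70 ± 0.17, adjusted p = 0.021), a call lost without irradiated KO library 1 or irradiated control library 2 (adjusted p = 0.12 and 0.14). Of 28 genes of serine synthesis, folate and the ATF4 response 8 rose and 4 fell (Shmt1 (fragile), Shmt2 (fragile), Mthfd1 (fragile) and Mthfd1l; 7 with the pairing). The count of rises was 15 with the pairing, 4 without irradiated KO library 2 or irradiated control library 1. Chac1, a glutathione-degrading enzyme induced by ATF4, had 19 and 18.2 against 49.1 and 50.7 CPM after irradiation (1.42 ± 0.08). It had 39 and 39 against 47.5 and 47.4 CPM at 0 Gy (interaction 1.14 ± 0.11, adjusted p = 0.0025). Mthfd1l, a mitochondrial folate enzyme, fell by 0.74. Xbp1, a regulator of the unfolded protein response, rose by 0.82 ± 0.12. In all, 6 of 21 endoplasmic reticulum genes rose (15 with the pairing, 2 without irradiated KO library 2 or irradiated control library 1, 3 without irradiated KO library 1 or irradiated control library 2) and 1 fell (Dnajc3 (fragile)).

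Of 31 lysosome genes 9 rose (15 with the pairing) and 2 fell (Lamp1 (fragile) and Tfe3 (fragile); 5 with the pairing). Lipa, the lysosomal acid lipase, had 83.1 and 87.1 against 179 and 170.3 CPM (1.04 ± 0.07, adjusted p = 6.7e-05). In 28 iron, copper and redox genes, 3 rose (Hmox1, Heph and Steap4 (fragile)) and 7 fell (7 rose with the pairing; for those that fell 13 with the pairing, 3 without irradiated KO library 2 or irradiated control library 1). Hmox1, the heme-degrading enzyme, had 30.7 and 33.6 against 67.8 and 73.3 CPM (1.13 ± 0.10). Cp (ceruloplasmin), a copper oxidase like Heph, had 51.2 and 51.8 against 14.8 and 15.7 CPM (-1.76 ± 0.14), from under 1 CPM in each library at 0 Gy. Glycolysis and hypoxia genes had 1 rise (Pfkp) and 4 falls (Pfkm, Slc16a3, Vegfa (fragile) and Egln3) in 29 (12 and 9 with the pairing), with Slc16a3, the lactate exporter, at 36 and 34 against 18 and 20.01 CPM (-0.88 ± 0.10). In the Ly6 family 4 of 7 rose and 1 fell (Ly6f (fragile)), and Ly6c1 was among those that rose. Ly6e had 231 and 250.02 against 759 and 817 CPM (1.71 ± 0.08). Slurp1 had 92.2 and 86.7 against 351 and 339.5 CPM (1.95 ± 0.08) and Ly6a (Sca-1) 548 and 443 against 1239 and 1109 CPM (1.24 ± 0.15). Of 11 epithelial genes 1 rose (Tjp1) and 0 fell (2 and 1 with the pairing). Of 20 mesenchymal transition genes 5 rose (Sparc, Mmp14, Axl, Tgfbi and Itga5 (fragile)) and 2 fell (Fn1 and Snai2 (fragile); 8 and 5 with the pairing).

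**Figure D4:**
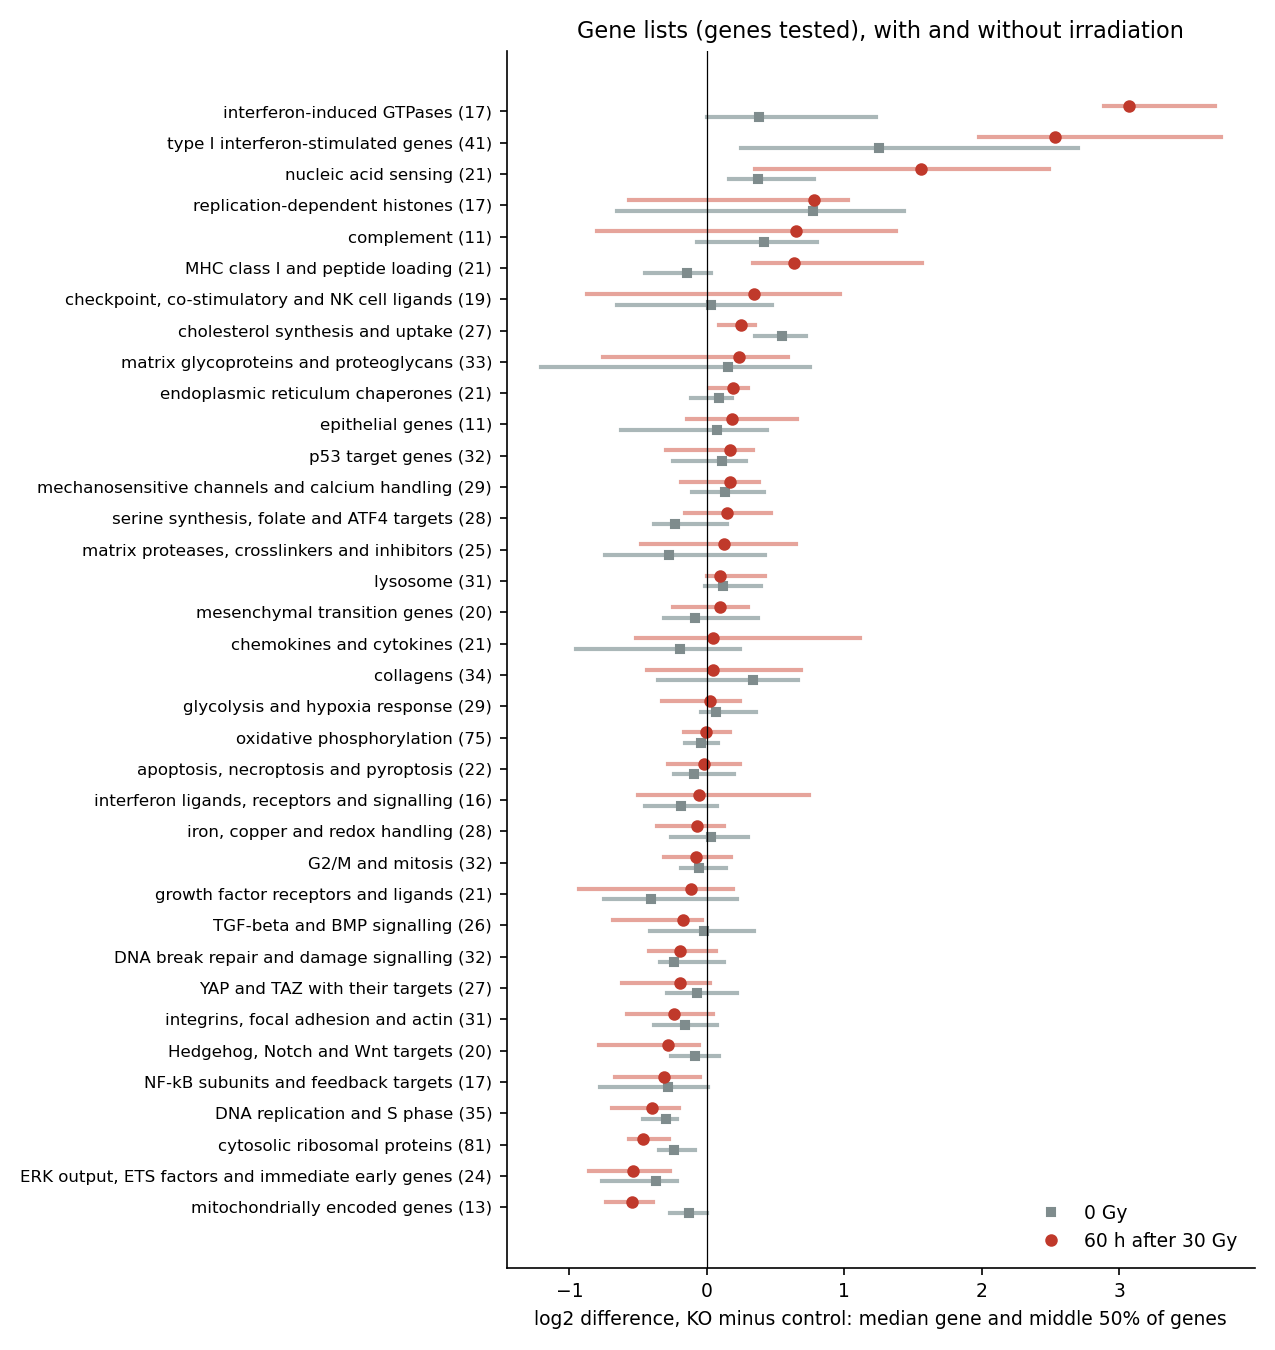
Each row is a gene list with the number of genes tested in brackets, for lists of at least 11 tested genes other than cell type markers; red circles give the median log2 difference between KO and control cells 60 hours after 30 Gy, grey squares that at 0 Gy, and bars the middle 50% of the list's genes. The interferon-induced GTPases (3.07) and type I interferon-stimulated genes (2.53) lie farthest to the right of these lists after irradiation. Farthest to the left of these lists are the ribosomal protein genes (-0.47), the ERK output, ETS factor and immediate early genes (-0.53) and the mitochondrially encoded genes (-0.55). The place of the mitochondrial list differs by library pair, with a median ratio of -0.23 for libraries 1 and -0.63 for libraries 2 (0.5 CPM added).

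The medians of chromosomes 7, 16 and 18 lay apart from those of the others, at both doses. Medians and shares per chromosome cover the tested genes whose mean reached 5 CPM. The median log2 difference was 0.38 after irradiation and 0.37 at 0 Gy over 746 genes of chromosome 7, 0.43 and 0.42 over 260 genes of chromosome 18, and -0.36 and -0.33 over 325 genes of chromosome 16. On the other chromosomes the medians after irradiation lay between -0.16 and 0.11. Of the genes on chromosome 7 43.3% were called higher, on chromosome 18 50.8%, and on chromosome 16 42.8% were called lower. Over all genes tested outside these 3 chromosomes, at any level, 1442 of 12969 (11.1%) were higher and 1493 (11.5%) lower. That set has no cut at 5 CPM, so its shares do not compare directly with those per chromosome. Among the named genes, Irf7, Trim30a and Axl lie on chromosome 7 and Iigp1 and Pmaip1 on 18. Ifnar1, Ifngr2, Mx1, Socs1, Mcm4, Prkdc, Col8a1 and Apod lie on 16. These are examples, and the list of named genes on the 3 chromosomes is not complete. DNA copy number was not measured, and its part in these shifts was not tested.

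**Figure D5:**
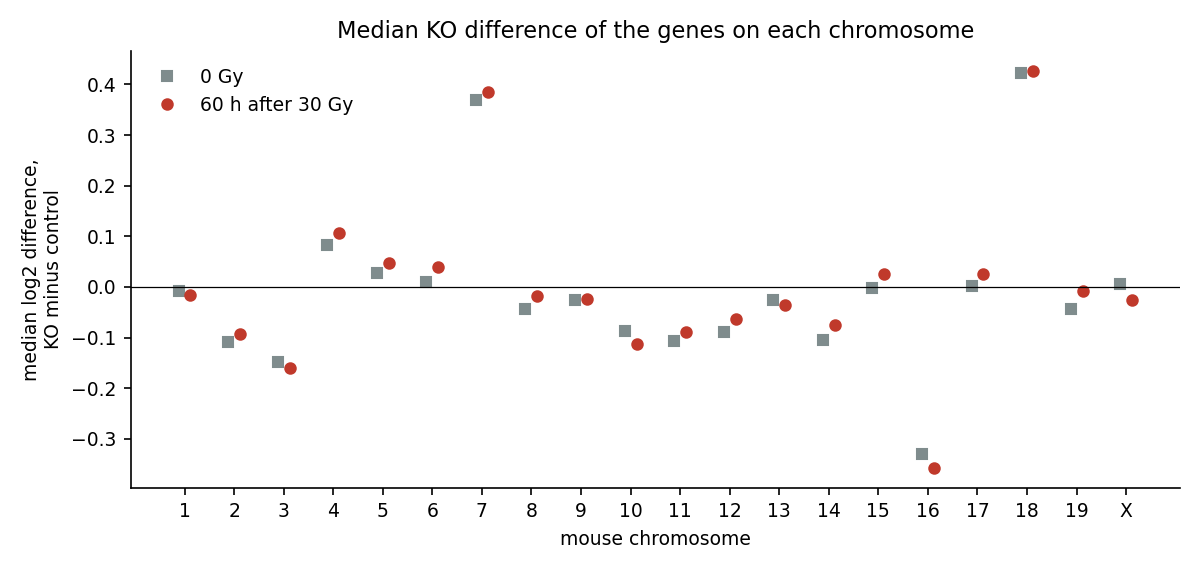
For each mouse chromosome the points give the median log2 difference between KO and control cells over its tested genes whose mean reached 5 CPM. Grey squares are 0 Gy and red circles 60 hours after 30 Gy. Chromosomes 7 and 18 lie at 0.37 to 0.43 and chromosome 16 at -0.36 to -0.33, and the others lie between -0.16 and 0.11.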

How the data were processed

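The deposited table holds raw read counts of 29079 genes in 8 libraries. The submitters' processing notes list HISAT2, HISAT, HTSeq, DESeq2 and mm10, with no versions or order. The sources used here do not give the annotation release, the strand setting or the treatment of multiply mapped reads, so near-identical and overlapping genes are uncertain. Symbols and positions came from GENCODE M21 for 28915 gene IDs.

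Counts were fitted with edgeR 4.0.16 (R 4.3.3): filterByExpr with a minimum count of 10, TMM normalisation, 1 coefficient per group over all 8 libraries and a quasi-likelihood test with 4 residual degrees of freedom. A gene was called at a Benjamini-Hochberg adjusted p under 0.05 over the 14923 genes tested. The KO effect after irradiation, that at 0 Gy and their difference (the interaction) were tested as contrasts. CPM values are counts scaled by TMM-adjusted library size. A group with 0 reads was set to a floor of 3 reads over the group for a lower bound on a fold (3 reads in 1 library are 0.154 to 0.275 CPM); such bounds, and exact 95% intervals, cover counting error alone, as no molecular identifiers were used. The common dispersion was 0.0199.

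Deviations of same-numbered libraries from their group means correlated at 0.619 to 0.656 in all 6 pairs of groups, so the numbers were taken to pair the libraries by a technical difference, and values with the number as a block are given where they change a named gene's call or move a count by over 1.5 times. Other alternatives were RLE size factors, DESeq2 1.42.0, no filter, the 4 irradiated libraries alone and leaving out each library in turn. Named genes are fixed anchor genes, the largest called changes over all genes and in each list, genes called in opposite directions before and after irradiation and the largest interactions; genes given by name only to account for a count of 5 or fewer, Mavs, and the markers Ptprc, Ctss, Xcr1 and Krt19, were chosen after their values were seen. Results for a few genes are not reported here. Gene lists and members were chosen with earlier results of these data known. Promoters came from RefSeq (GRCm38.p6). Counts were also simulated for 14383 genes. The test of the comparison after irradiation recovered 22 of 73 genes changed 1.5-fold, 38 of 58 changed 2-fold and 63 of 69 changed 4-fold. It called 13 of 14183 unchanged genes. The simulation changed far fewer genes than were called here and none of those with the lowest levels. It also had no shared deviation of same-numbered libraries, so its rates do not carry over to this comparison. Python 3.11.15, pandas 2.3.3, scipy 1.17.1 and matplotlib 3.10.9 were used.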

Additional observations from a re-analysis of the deposited data

Results flagged for a closer look

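For the genes below the KO effect 60 hours after 30 Gy differed from that at 0 Gy by the edgeR interaction test at an adjusted p under 0.05 over all genes tested; the value in brackets is the effect after minus the effect before, on the log2 scale, and a positive value means that the KO cells stood higher relative to control after irradiation. Among interferon signalling and response genes the KO effect was more positive after irradiation for Stat2 (1.53), Irf1 (1.15), Socs1 (2.61), Isg15 (2.18), Tgtp1 (4.73), Igtp (2.52), Trim30a (2.71), Tlr3 (2.48), Slfn8 (3.64), Slfn9 (1.90) and Batf2 (4.11). In antigen presentation and at the checkpoint it was more positive for Tap1 (2.88), Nlrc5 (1.99), Psmb9 (3.20), Psmb10 (1.35), H2-T23 (1.55) and Cd274 (3.04). Cell death genes moved both ways, with Casp4 (1.42), Mlkl (1.18), Gsdmd (0.75) and Bcl2 (-1.25). Replication, chromatin and p53-linked genes were Mcm4 (-0.61), Mcm6 (0.64), Uhrf1 (-0.64), Hist1h1c (1.09), Hist1h2bc (1.03) and Plk2 (-0.60). Signalling and growth factor genes were Wnt5a (0.94), Jag1 (-1.24), Erbb3 (-0.93), Vegfd (1.03), Itpr2 (1.06) and Trpv2 (3.03). Metabolic, surface and secreted protein genes were Chac1 (1.14), Lipa (0.58), Ly6e (1.62), Slurp1 (0.69), Cp (-1.89), Plau (-1.61), Lbp (-2.45), Dcn (-1.71) and Rtl9 (-2.51). Over all genes 205 interactions were positive and 85 negative. Each interaction rests on 2 libraries in each of the 4 groups. With 1 library left out 99 to 124 interactions were called positive and 18 to 31 negative. Of the 42 genes named here 18 were called in each of the 8 fits without 1 library, 24 lost the call in at least 1 of them, and 0 changed sign. Those called in none of the 8 were Plau, Wnt5a, Mcm4, Mcm6, Uhrf1, Cp, Lipa, Slurp1, Lbp, Itpr2, Gsdmd, Plk2 and Trpv2. The call of Trpv2 was also lost with DESeq2 (adjusted p = 0.10). Besides the genes called in none of the 8 fits, the fragile interactions of this section were Isg15, Tgtp1, Igtp, Batf2, Casp4, Bcl2, Hist1h1c, Hist1h2bc, Jag1, Erbb3 and Dcn.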

How the results depend on the processing

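With the replicate block (libraries paired by number) 3761 genes were higher and 3755 lower in KO cells after irradiation, 3197 higher and 3502 lower before it, 1216 had a more positive and 1276 a more negative KO effect after irradiation, and 4698 were called the same way before and after, against 1944 without it; the block took away no call of a gene named in the report. With no filter on low counts 359 interactions were more positive and 219 more negative. RLE size factors and DESeq2 left each of the 9 counts of calls within 1.5 times, and the fit of the 4 irradiated libraries alone the 4 counts it gives. With 1 of the 8 libraries left out at a time, the remaining library of that group being assumed to vary like the others, 1100 to 1887 genes were higher and 792 to 1592 lower after irradiation, 498 to 696 were at least 2-fold higher and 270 to 410 at least 2-fold lower. In the same fits 788 to 1409 were higher and 676 to 1139 lower before irradiation, 99 to 124 interactions were more positive and 18 to 31 more negative, and 1150 to 1265 genes were called the same way before and after. Of 208 named genes called after irradiation 52 lost the call in at least 1 alternative and 0 reversed; 43 lost it without irradiated KO library 1, 40 without irradiated KO library 2, 37 without irradiated control library 1, 39 without irradiated control library 2, 14 with DESeq2, 15 with the irradiated libraries alone, 8 with no filter and 2 with RLE size factors. The causes of these losses were not tested. Depth limits genes with few reads: Piezo2, with 3 to 12 reads in each irradiated library, was under the filter. At 2 libraries a group the test found 22 of 73 simulated 1.5-fold changes, in a simulation with the limits given above that did not cover genes with few reads.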
